A study of Saccharomyces cerevisiae with 6 samples.

Results

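The nuclear genes for the machinery of oxidative phosphorylation were examined in ChIP-Seq data for trimethylated lysine 4 of histone H3 (H3K4me3), a mark found over the beginning of transcribed genes. The 43 genes were chosen by systematic name from their known roles and not by a limit on any value: 4 encode succinate dehydrogenase (complex II), 9 the cytochrome bc1 complex (complex III), 9 cytochrome c oxidase (complex IV), 14 the ATP synthase and its inhibitor, 2 cytochrome c, and 5 the dehydrogenases that pass electrons to ubiquinone or cytochrome c. All but 3 of them (*ATP1*, *ATP7* and *NDE2*) are among the 4970 genes with an H3K4me3 peak in at least 1 of the 2 peak lists. The cells were *Saccharomyces cerevisiae* of the BY4742 background, either wild type (WT) or with *JHD2* deleted (*jhd2∆*, labelled jhd2_delta), and the study's strain list describes both as prototrophic and the deletion as a replacement of *JHD2* by a hygromycin marker. Both were grown vegetatively in YAR, a synthetic medium with raffinose as carbon source and ammonium as nitrogen source, to an optical density of 0.5 and crosslinked with formaldehyde. Each genotype has 1 H3K4me3 library, so how far cultures of one genotype vary is unknown and no p-value is given. Libraries of pan-H3 ChIP and whole cell lysate belong to the same series and are not analysed here. The lists hold no read totals, so the depth of each library is not known from them. *JHD2* itself has a peak in the WT list and none in the *jhd2∆* list.

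Yeast has no multi-subunit complex I. Electrons from NADH enter the chain through single-protein dehydrogenases, those from succinate through complex II, and both reach oxygen by way of ubiquinone, complex III, cytochrome c and complex IV, while the ATP synthase uses the proton gradient that results. Most subunits are encoded in the nucleus, many by very short genes, and much of the set is repressed by glucose and derepressed in respiring cells by regulators that include the Hap2/3/4/5 complex. H3K4me3 is laid down by Set1, in a complex that travels with RNA polymerase II, and is removed by Jhd2, a demethylase of the Jumonji family. The question put to these genes was how far, and at which edge, the domain of H3K4me3 differed when Jhd2 was missing.

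A peak was listed for 37 of the 43 genes in WT and for 38 in *jhd2∆*, and 35 genes had a peak in both lists. Of all 6021 protein-coding genes in the RefSeq table, 74.3% were listed in WT and 78.5% in *jhd2∆*. Each listed gene of the set had 1 peak per list, and none of those peaks was shared with another gene. The peak of each of the 35 genes in one list overlapped exactly 1 listed peak of the other. Fusion with a peak that is not listed, or a split from one, cannot be seen in these lists.

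At the 35 genes the H3K4me3 peak was narrower in *jhd2∆* in 26 cases and wider in 9. Over all 4526 genes with a peak in both lists, 35.9% were narrower and 63.2% wider. The median difference in breadth, *jhd2∆* minus WT, was -18 bp for these genes (quartiles -35.5 and 0.5 bp), against 17 bp over all genes (quartiles -14 and 60 bp). The median breadth of the set was 670 bp in WT, compared with 662 bp in *jhd2∆*, and breadths ran from 340 bp (*COX9*) to 1144 bp (*ATP2*) in WT and from 275 bp (*ATP18*) to 1356 bp (*ATP2*) in *jhd2∆*. Most differences were small, since 32 of the 35 lay within 100 bp. The median was -8.5 bp at the 4 genes of complex II, -21.5 bp at 8 of complex III, -35 bp at 7 of complex IV, -23 bp at 11 of the ATP synthase and 30 bp at 4 dehydrogenases.

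**Figure D1:**
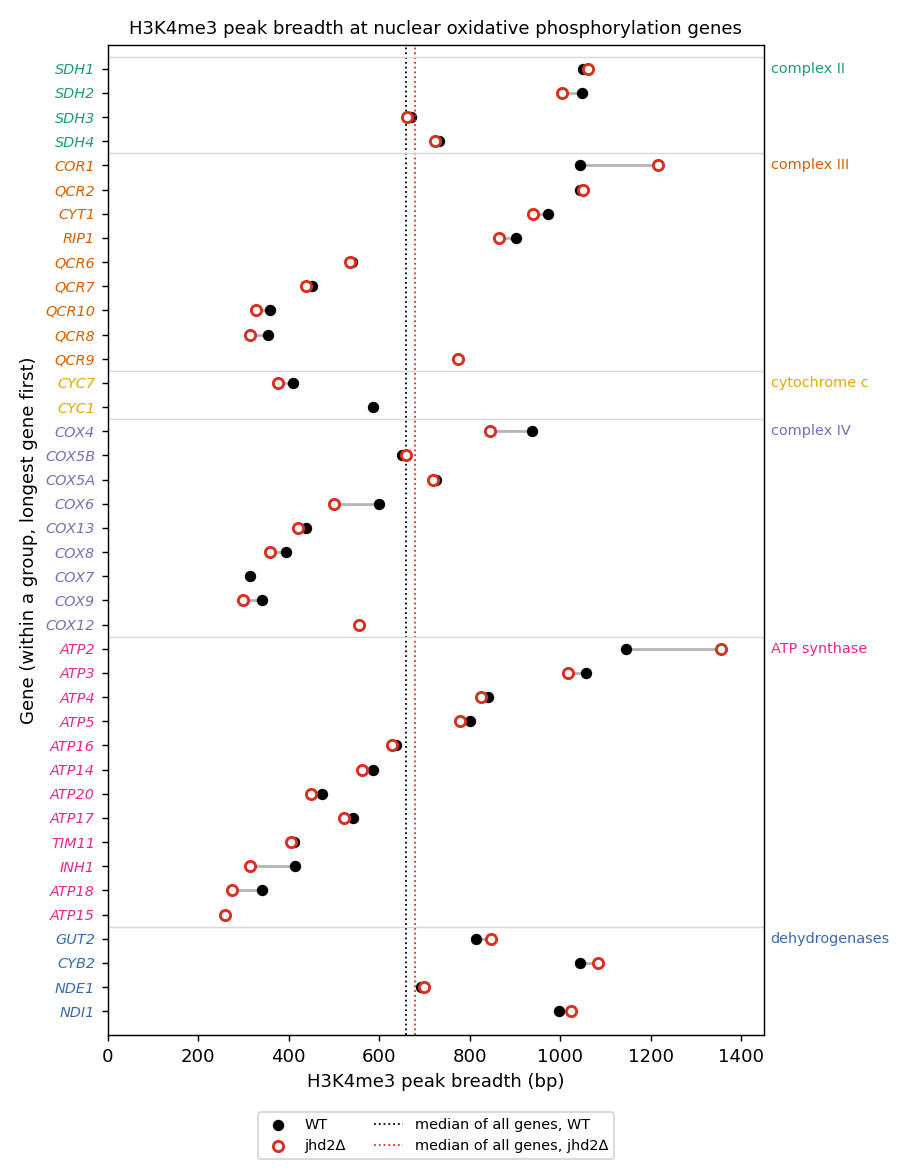
H3K4me3 peak breadth in bp at the 40 oxidative phosphorylation genes with a peak in at least 1 list, with 1 library per genotype (filled black, WT; open red, *jhd2∆*); a gene with a single symbol is listed in that genotype only, and dotted lines are the medians over all genes with both peaks, 658 bp in WT, compared with 679 bp in *jhd2∆*. The open symbol lies to the left of the filled one at 26 of 35 genes, and the longest bars to the right belong to *ATP2* and *COR1*.

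Complex II oxidizes succinate to fumarate and is part of both the citric acid cycle and the respiratory chain. The peak of *SDH1* (YKL148C), the flavoprotein subunit, covered 1051 bp in WT (chromosome XI, 170216 to 171266), compared with 1062 bp (170175 to 171236) in *jhd2∆*. The peak of *SDH2* (YLL041C), the iron-sulfur subunit, covered 1047 bp in WT (chromosome XII, 52966 to 54012), compared with 1003 bp (53000 to 54002) in *jhd2∆*. Positions here and below are those of the deposited lists, which name no genome build. The genes for the membrane anchor had narrower domains, with 670 and 662 bp at *SDH3* (YKL141W) and 732 and 723 bp at *SDH4* (YDR178W) in WT and *jhd2∆*. Thus 3 of the 4 peaks were narrower in *jhd2∆*, with differences from -44 to -8 bp, and that of *SDH1* was wider by 11 bp. *SDH1* is also the only one of the 4 genes longer than its WT peak. All 4 peaks were tall, with pileup heights above those of 85.0% to 98.5% of genes in the WT list.

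In complex III the core subunit gene *COR1* (YBL045C) stood apart. Its peak covered 1044 bp in WT (chromosome II, 134644 to 135687), compared with 1215 bp (134456 to 135670) in *jhd2∆*, a difference of 171 bp that exceeded that of 95.2% of all genes. *QCR2* (YPR191W), which encodes the other core subunit, had a WT peak of the same 1044 bp and a *jhd2∆* peak of 1049 bp. The catalytic subunits differed in the other direction, with 973 and 940 bp in WT and *jhd2∆* at *CYT1* (YOR065W), which encodes cytochrome c1. At *RIP1* (YEL024W), which encodes the Rieske iron-sulfur protein, the peak was 901 bp in WT, compared with 865 bp in *jhd2∆*. The small accessory subunits had the narrowest domains of the complex. Across *QCR6* (YFR033C), *QCR7* (YDR529C), *QCR8* (YJL166W) and *QCR10* (YHR001W-A) breadths lay between 354 and 540 bp in WT and between 315 and 536 bp in *jhd2∆*, and all 4 were narrower in *jhd2∆*, with differences of -4, -13, -39 and -30 bp in that order. *QCR9* (YGR183C) had a peak only in the *jhd2∆* list.

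Cytochrome c, which carries electrons from complex III to complex IV, is made from a pair of genes, *CYC1* (YJR048W) for the main aerobic form and *CYC7* (YEL039C) for the form favoured at low oxygen. *CYC1* had a peak of 587 bp in WT (chromosome X, 526255 to 526841) that was taller than those of 90.5% of genes, and no peak in the *jhd2∆* list. *CYC7* had a low peak in both lists, with a pileup above that of 10.8% of genes in WT and 9.96% in *jhd2∆*. Its breadth was 409 bp in WT (chromosome V, 79757 to 80165), compared with 377 bp (79755 to 80131) in *jhd2∆*. In WT the *CYC1* domain was 178 bp wider than that of *CYC7*, and in *jhd2∆* the pair cannot be compared.

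The largest decreases of the set were in complex IV, the terminal oxidase, and at *INH1* (YDL181W). The peak of *COX6* (YHR051W) covered 600 bp in WT (chromosome VIII, 209608 to 210207), compared with 499 bp (209680 to 210178) in *jhd2∆*, a difference of -101 bp that was below that of all but 1.27% of genes. At *COX4* (YGL187C), the peak covered 938 bp in WT (chromosome VII, 149650 to 150587), compared with 845 bp (149679 to 150523) in *jhd2∆*, a difference of -93 bp. Most of the difference at both lay at the upstream edge, which shifted inward (-72 bp at *COX6* and -64 bp at *COX4*), while the downstream shift was -29 bp at each. The gene length of 821 bp that the WT list gives for *COX4* is the only one among the listed genes of the set that is not the RefSeq length less 1 bp. The smaller subunits *COX8* (YLR395C), *COX9* (YDL067C) and *COX13* (YGL191W) had WT peaks of 394, 340 and 439 bp and *jhd2∆* peaks of 359, 298 and 421 bp. Each was narrower in *jhd2∆*, with differences of -35, -42 and -18 bp. *COX7* (YMR256C) was listed only in WT, with a peak of 314 bp, and *COX12* (YLR038C) only in *jhd2∆*, with a peak of 555 bp.

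Subunit V of cytochrome c oxidase also comes in an aerobic and a hypoxic form, from *COX5A* (YNL052W) and *COX5B* (YIL111W). The *COX5A* peak was 725 bp in WT (chromosome XIV, 531668 to 532392), compared with 718 bp (531681 to 532398) in *jhd2∆*. The *COX5B* peak was 650 bp in WT (chromosome IX, 155216 to 155865), compared with 659 bp (155208 to 155866) in *jhd2∆*. *COX5B* was thereby the only gene of complex IV with a wider peak in *jhd2∆*, by 9 bp. The aerobic form again had the broader domain, by 75 bp in WT, compared with 59 bp in *jhd2∆*. The pair also differed in height: the *COX5A* pileup was above 98.8% of genes in WT and 93.1% in *jhd2∆*, and the *COX5B* pileup above 27.1% and 59.3%.

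Among the genes of the ATP synthase, *ATP2* (YJR121W) had the largest increase of the whole set and *INH1* the largest decrease but for *COX6*. *ATP2* encodes the catalytic beta subunit. Its peak covered 1144 bp in WT (chromosome X, 647398 to 648541), compared with 1356 bp (647399 to 648754) in *jhd2∆*, a difference of 212 bp that exceeded that of 96.7% of genes. *ATP2* lies close to the deleted locus: YJR120W is the only protein-coding gene between it and *JHD2*, and 842 bp separate the WT peaks of *JHD2* and *ATP2*. The part that the exchange of *JHD2* for the marker plays in this difference was not tested. *INH1* encodes the inhibitor that keeps the enzyme from hydrolysing ATP. Its peak was 414 bp in WT (chromosome IV, 135108 to 135521), compared with 314 bp (135130 to 135443) in *jhd2∆*, a difference of -100 bp.

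The other listed subunits of the ATP synthase had narrower peaks in *jhd2∆* without exception. These are the F1 genes *ATP3* (YBR039W, gamma, 1057 bp in WT, compared with 1018 bp in *jhd2∆*) and *ATP16* (YDL004W, delta, 637 and 627 bp), the stalk genes *ATP4* (YPL078C, 841 and 824 bp), *ATP5* (YDR298C, 801 and 778 bp) and *ATP14* (YLR295C, 587 and 562 bp), and the small membrane subunits *ATP17* (YDR377W, 542 and 523 bp), *ATP18* (YML081C-A, 341 and 275 bp), *ATP20* (YPR020W, 474 and 449 bp) and *TIM11* (YDR322C-A, 411 and 405 bp). Their differences ran from -66 bp at *ATP18* to -6 bp at *TIM11*. *ATP18* thus ranks with *COX6*, *INH1* and *COX4* as the 4 genes of the set that were narrower by more than 50 bp, and *SDH2* follows with -44 bp. *ATP15* (YPL271W), which encodes the epsilon subunit, was listed only in *jhd2∆*, where its peak of 260 bp was wider than those of only 0.996% of genes in that list. *ATP1* (YBL099W) and *ATP7* (YKL016C), which encode the alpha and d subunits, were in neither list.

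The dehydrogenases went the other way. The peak of *NDI1* (YML120C), which oxidizes NADH of the matrix, was 997 bp in WT (chromosome XIII, 28897 to 29893), compared with 1023 bp (28844 to 29866) in *jhd2∆*. The peak of *NDE1* (YMR145C), the main enzyme for cytosolic NADH, was 691 bp in WT (chromosome XIII, 555773 to 556463), compared with 699 bp (555756 to 556454) in *jhd2∆*. All of the listed genes in this group were longer than their WT peaks. At *GUT2* (YIL155C), the glycerol-3-phosphate dehydrogenase, breadths were 813 bp in WT (chromosome IX, 52986 to 53798), compared with 847 bp (52961 to 53807) in *jhd2∆*. At *CYB2* (YML054C), which feeds electrons from lactate straight to cytochrome c, they were 1044 bp in WT (chromosome XIII, 166477 to 167520), compared with 1084 bp (166382 to 167465) in *jhd2∆*. The 4 peaks were wider by 26, 8, 34 and 40 bp in this order, and *NDE2* (YDL085W), the paralogue of *NDE1*, was in neither list. These small increases lay near the middle of all genes, above 42.9% (*NDE1*) to 66.0% (*CYB2*) of them.

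Few genes passed a limit of 100 bp in either direction. Wider by more than that were 2 of 35 (*ATP2* and *COR1*), where 14.2% of all genes passed, and narrower 1 of 35 (*COX6*), where 1.3% did. At a limit of 50 bp the same 2 genes were wider, against 29.1% of all genes, and 4 were narrower, against 5.86%. At 200 bp only *ATP2* was wider, against 3.62%, and 0 genes were narrower, against 0.464%.

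Direction within the set followed gene length. The 8 genes of 1000 bp or more (*SDH1*, *COR1*, *QCR2*, *ATP2*, *NDI1*, *NDE1*, *GUT2* and *CYB2*) were all wider in *jhd2∆*, by a median of 30 bp, and 26 of the 27 shorter genes were narrower, with a median of -25 bp and *COX5B* as the exception. Among all other genes of at least 1000 bp 71.1% were wider, and among shorter ones 48.4% were narrower. The same division results when genes are split by whether they are longer than their own WT peak. The WT peak was at least as broad as the gene is long at 27 of the 35 genes, against 19.9% of all genes, and the median ratio of breadth to gene length was 1.21 for the set and 0.547 over all genes. Of the other genes whose WT peak was at least as broad as the gene, 62.5% had a narrower peak in *jhd2∆*. Both splits were chosen after the values had been seen. The split by WT peak uses the same WT breadth that the difference subtracts, so it is not independent of the difference. Across the 35 genes the difference in breadth had a Spearman correlation of 0.579 with gene length and 0.0583 with WT pileup, and across all 4526 genes these were 0.199 and -0.257. The points of each correlation share the same pair of libraries.

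**Figure D2:**
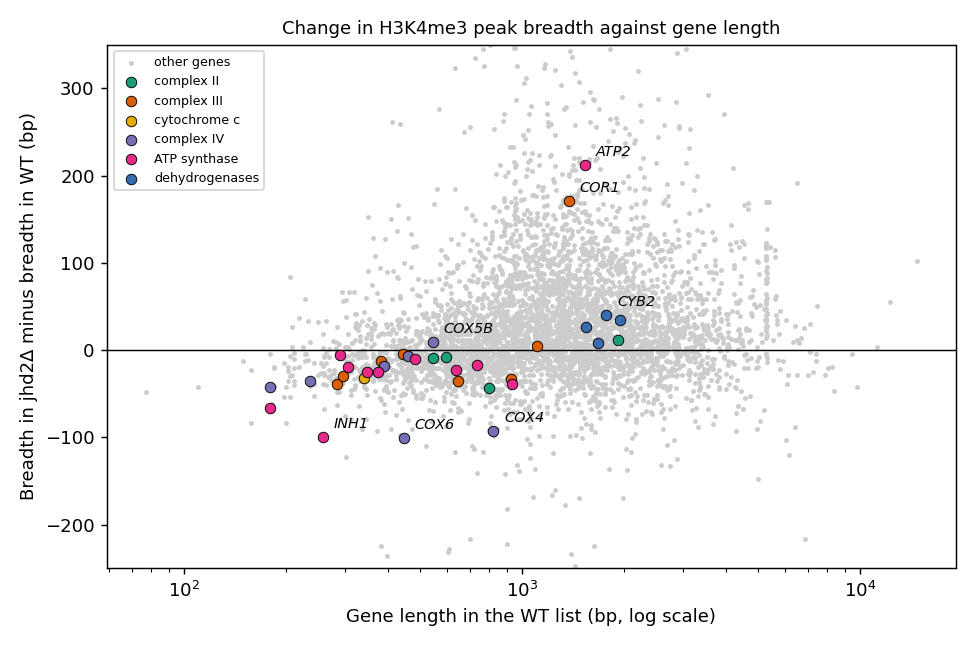
Difference in H3K4me3 peak breadth, *jhd2∆* minus WT in bp, against gene length in bp on a log scale, for the 35 oxidative phosphorylation genes with a peak in both lists (coloured by complex) and 4491 other genes (grey, of which 57 lie beyond the vertical axis). The 8 coloured points at 1000 bp or more are above 0, and 26 of the 27 shorter ones are below it.

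Since these genes are short and their peaks tall, they were compared with other genes of like length and WT pileup. Genes were divided by each measure into 5 groups of about equal size. The set is far from evenly spread over these groups: 22 of the 35 genes lay in the group of shortest genes (690 bp or less), 25 in that with the tallest WT peaks (pileup of 322 or more), and 14 in both. For each gene the median difference of the 156 to 200 other genes in the same group for both was subtracted. The median of the remainders was -9.5 bp (quartiles -29.5 and 6 bp), and 23 of the 35 genes lay below their like genes and 12 above. Among like genes an average of 57.7% were narrower in *jhd2∆*, beside 74.3% of the set.

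The comparison looked different from group to group. The 14 genes in the group of shortest genes and tallest peaks were all narrower, with a median of -18.5 bp, and 75.5% of 200 like genes were narrower as well, with a median of -15.5 bp. The 5 genes of the next length group, 692 to 1037 bp, with the tallest peaks (*SDH2*, *CYT1*, *COX4*, *ATP3* and *ATP4*) were all narrower too, with a median of -39 bp, beside 56.2% of 192 like genes and a median of -5 bp. *COX4* was placed in this group by its length in the WT list, which differs from the RefSeq length. Its like genes depend on that length, and a placement by the RefSeq length was not tested. Genes furthest below their like genes were *INH1* (-111 bp), *COX4* (-88 bp), *COX6* (-85.5 bp) and *ATP18* (-67 bp). Furthest above were *ATP2* (189 bp) and *COR1* (162 bp), beyond which no gene of the set exceeded its like genes by more than 15 bp.

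The strand letter of each systematic name was used to tell the upstream from the downstream edge. An edge shift is positive where the edge lay further out in *jhd2∆* than in WT. The upstream edge moved inward at 32 of the 35 genes, and over all genes it did so at 80.6%. Its median shift was -22 bp in the set, with quartiles of -27 and -8 bp, and -13 bp over all genes. The downstream edge is the one in the direction of transcription. At the 27 genes whose WT peak was at least as broad as the gene, it need not lie within the gene body. The downstream edge moved inward at 19 of the 35 genes, against 21.6% of all genes, and outward at 15, against 77.4%. Its median shift was -2 bp where that of all genes was 29 bp. Against genes of like length and pileup the distance was about equal at both edges, since the median shift of the like genes was -14 bp upstream and 8 bp downstream and the median remainder of the set was -6 bp upstream and -7 bp downstream.

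Among other genes of at least 1000 bp the downstream edge moved inward at only 14.9%, with a median shift of 40 bp. At the 8 genes of the set this long it moved outward without exception, by 17 bp (*NDE1*) to 213 bp (*ATP2*), with a median of 47 bp. At *COR1* this shift was 188 bp and at *CYB2* 95 bp, and at both the upstream edge moved inward, with shifts of -17 and -55 bp. At *ATP2* the upstream edge moved by -1 bp, so the difference in breadth lay almost wholly at the downstream edge. At the 27 shorter genes the downstream edge moved inward in 19 and outward in 7, with a median of -9 bp and a range from -78 bp (*INH1*) to 22 bp (*SDH4*). Among other genes under 1000 bp it moved inward at 32.2%, with a median shift of 12 bp. Both edges moved inward at 18 of the 35 genes, or 51.4%, while 17.4% of all genes and an average of 30.8% of the like genes had this pattern. *COX5B* and *GUT2* were the only genes of the set whose upstream edge moved outward, by 8 and 9 bp.

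**Figure D3:**
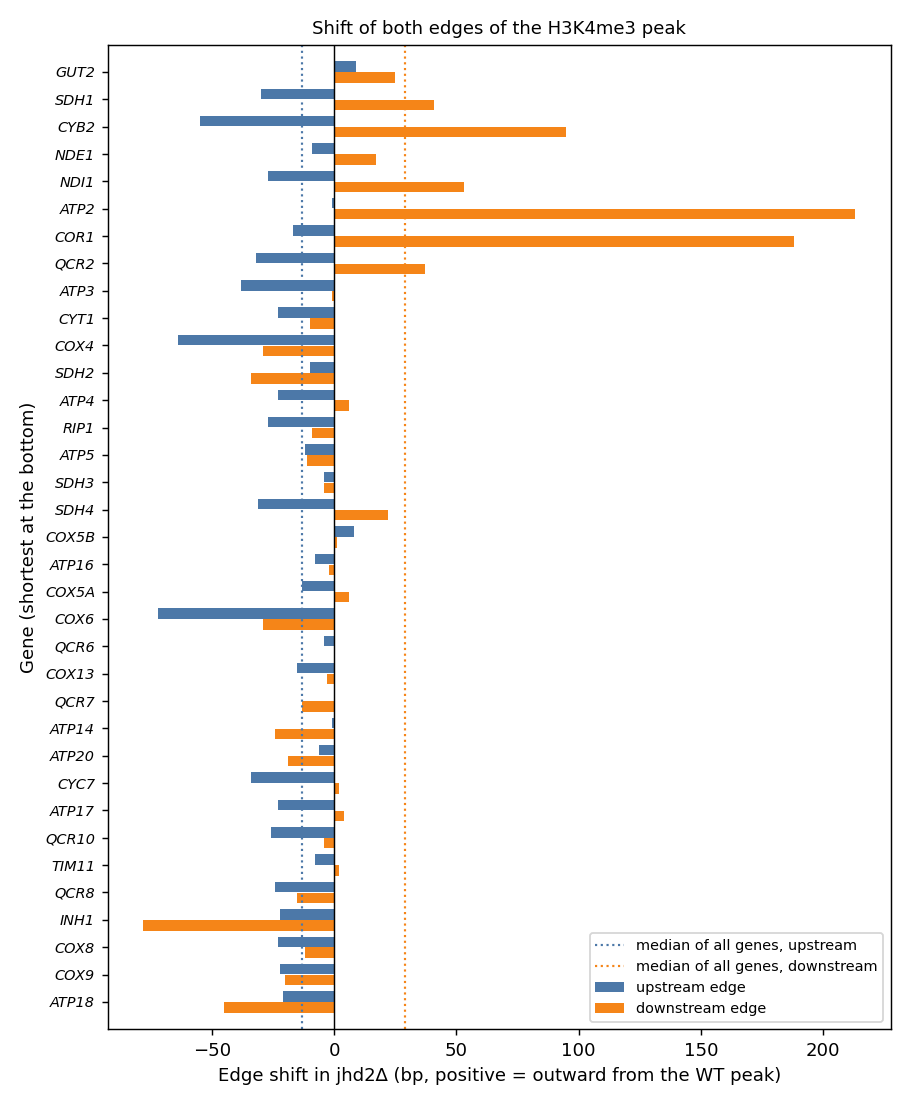
Shift of the upstream (blue) and downstream (orange) edge of the H3K4me3 peak in *jhd2∆* relative to WT, in bp and positive outward, for the 35 oxidative phosphorylation genes in order of gene length; dotted lines are the medians of all genes, -13 and 29 bp. Blue bars point inward at 32 genes, and orange bars that reach beyond 22 bp to the right occur only at genes of 1000 bp or more.

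The pileup height of a peak could be compared only within a list, by its rank or against the list median. The reason is that the authors describe the total H3K4me3 signal as made equal between the genotypes. A gain or loss shared by all genes would therefore not appear in these pileups, and breadths may be affected as well, which was not tested. The study reports more bulk H3K4me3 in *jhd2∆* than in WT in YAR by western blot. By ChIP-qPCR it reports more at *MRPL17*, *PMA1* and *YEF3*, genes outside the set without a breadth change. Its authors propose that normalization hid a genome-wide gain. A narrower peak here thus does not by itself show less H3K4me3 at the gene. The set ranked high in both lists. The median gene of the set stood above 95.2% of all listed genes in WT and above 93.1% in *jhd2∆*. Of the 35 genes 25 were in the top 20% of the WT list and 22 in that of *jhd2∆*, where by construction 19.6% and 19.5% of all listed genes fall. The tallest WT peaks belonged to *ATP14*, *COX6* and *ATP2*, with pileups of 371, 366 and 363. In *jhd2∆* they belonged to *ATP14*, *ATP2* and *ATP4*, with 343, 341 and 334, and *COX6* followed with 332.

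The rank was lower in *jhd2∆* at 23 of the 35 genes and higher at 12, and 51.9% of all genes ranked higher. *QCR8* went from above 52.6% of genes in WT to above 17.2% in *jhd2∆*, and *COX9* from 54.5% to 34.7%. *INH1* went from 19.7% to 68.9% and *COX5B* from 27.1% to 59.3%. These were the 4 largest moves in rank of the set, and each was at a peak of low or middle height in WT. At *INH1* a relatively taller peak in *jhd2∆* was therefore also the one with a narrower base, while at *QCR8* and *COX9* the peak was lower in rank and narrower.

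**Figure D4:**
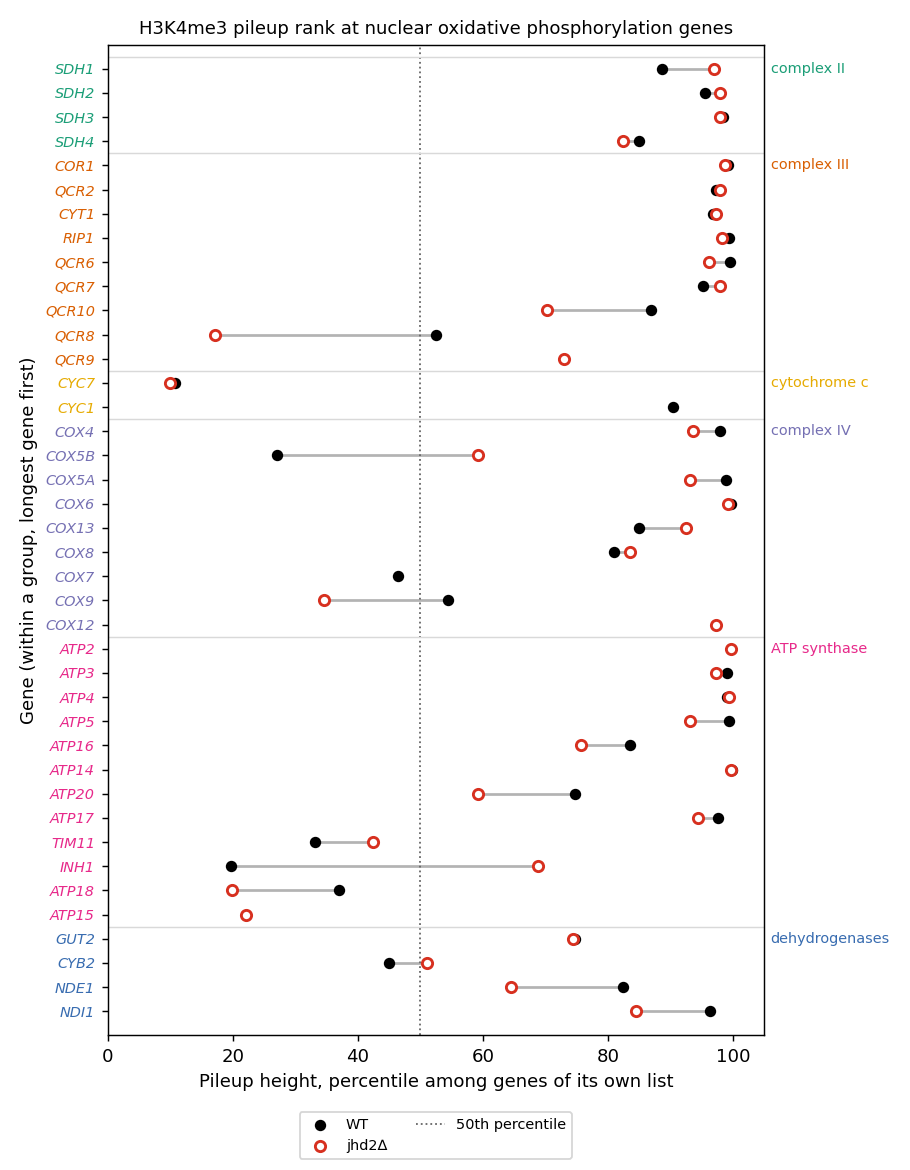
Pileup height of the H3K4me3 peak as the percentile among the genes of its own list, at the 40 oxidative phosphorylation genes listed in WT (filled black) or *jhd2∆* (open red), with 1 library per genotype. Most symbols lie above the 80th percentile, and the longest bars belong to *INH1*, *QCR8* and *COX5B*.

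The genes missing from a list were examined by the serial numbers in the names of the peaks. Listed in *jhd2∆* alone were 3 of the 43 genes (*QCR9*, *COX12* and *ATP15*), where 5.33% of protein-coding genes were, and in WT alone 2 (*CYC1* and *COX7*), where 1.15% were. In neither list were 3 (*ATP1*, *ATP7* and *NDE2*), against 20.4%. Where 1 list held a peak, no peak of the other list overlapped it. The missing peaks were not all low ones: the *jhd2∆* peak of *COX12* was taller than those of 97.3% of genes and that of *QCR9* than those of 73.1%, while that of *ATP15* was above 22.1%.

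Numbers were skipped between the listed peaks on either side of every one of these places. Between the listed *jhd2∆* peaks of *TAH11* and *UTR1*, which flank *CYC1*, 2 numbers are unused. Between the WT peaks of *RNR4* and *TYS1*, around *QCR9*, 2 are unused as well. In all, 6 of 6 such intervals in the WT list and 5 of 5 in the *jhd2∆* list lacked at least 1 number, whereas 52.0% of WT intervals of at least 2928 bp and 46.6% of *jhd2∆* intervals of at least 2959 bp, the shortest lengths among these places, did so. The comparison was not matched for length. The intervals at these places reached 10112 bp in WT and 9254 bp in *jhd2∆*. Over intervals of any length 16.3% in WT and 14.3% in *jhd2∆* lacked a number, so the share differs with length. For *ATP1* the interval between its listed neighbours lacked 1 number in each list, and so it did for *ATP7* and *NDE2*. The numbers do not tell where in an interval an unlisted peak lay or why it is not listed, so absence from a list does not show that H3K4me3 was absent at the gene.

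Other genes of the pathway were grouped by role. Over all genes with a peak in both lists 63.2% were wider in *jhd2∆* and 35.9% narrower. By more than 100 bp, 14.2% were wider and 1.3% narrower. Of 32 assembly factors, proteins that build the complexes without being part of them, 26 had a peak in both lists. In *jhd2∆* 14 of the 26 were wider and 12 narrower, with a median difference of 6.5 bp. None was narrower by more than 100 bp and 2 were wider by more than that: *SCO1*, which delivers copper to complex IV, went from 499 to 644 bp, and *ATP23*, a protease and chaperone of the ATP synthase, from 412 to 547 bp. The largest decreases of the list were at *COX18*, which inserts a subunit of complex IV into the membrane (-57 bp), and *ATP10*, an assembly factor of the ATP synthase (-54 bp). Of 9 genes for the synthesis of ubiquinone 7 were in both lists, 5 of them wider, 1 narrower (*COQ8*) and 1 equal (*COQ1*), with a median of 22 bp. The median gene length was 543 bp for the 35 genes of the complexes, 825.5 bp for the assembly factors, 1118 bp for ubiquinone synthesis and 1106 bp for the regulators described next, whose median difference was 5 bp. In order of gene length the median difference rose from the complexes to the assembly factors and to ubiquinone synthesis. Only the regulators fell out of this order. These medians rest on few genes and their quartiles overlap. The quartiles were -23.25 and 40 bp at the 26 assembly factors, 2.5 and 82.5 bp at the 7 ubiquinone genes and -16 and 54 bp at 5 regulators.

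The regulators gave few values. *HAP1*, an activator that responds to heme, had a peak of 873 bp in WT, compared with 878 bp in *jhd2∆*. *ROX1* and *CAT8*, a repressor of hypoxic genes and an activator of genes for non-fermentable carbon, were wider by 76 and 54 bp. In the Hap2/3/4/5 complex *HAP2* and *HAP3* had narrower peaks, with differences of -48 and -16 bp. *HAP4*, its activating subunit, and *HAP5* were listed only in *jhd2∆*, with peaks of 884 and 787 bp. Of all protein-coding genes 5.33% were listed in *jhd2∆* alone. None of these lists was compared with the oxidative phosphorylation genes by a test.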

How the data were processed

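Per the study's methods, about 14000000 single-end reads of 51 bp were obtained for each library. Reads were aligned by the authors with Bowtie2 2.2.3 (version as in the submitters' processing notes) to the iGenomes yeast reference, and peaks were called in each library with MACS2 without the broad option and given to genes whose 5′ coding region they overlap. The authors describe ChIP-Seq normalization as making total H3K4me3 signal equal in WT and *jhd2∆*, by a procedure they do not detail. The build, the control library and the treatment of duplicates are not given in the sources used here. The deposited lists give each peak's position and breadth in bp and its pileup height, a coverage signal, beside the gene length in the WT list, and no read counts. The WT list's empty, repeated and ratio columns were not used.

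For each gene the widest peak was taken, and breadths and edges were subtracted, *jhd2∆* minus WT. Like genes are those outside the set in the same of 5 groups by gene length and of 5 by WT pileup. Symbols came from the RefSeq table of assembly R64 and matched all 43 genes. That table was used for names, neighbours and as a check of lengths, and its coordinates were not printed. Computation used pandas 2.3.3 and numpy 2.4.6 under Python 3.11.15, with matplotlib 3.10.9 for plots, and the computation was tested on simulated lists. With 1 library per genotype no test across genes was run. The genes, lists and alternatives were chosen with earlier results of these data known. Promoter and protein sequences were not analysed here.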

Additional observations from a re-analysis of the deposited data

How the results depend on the processing

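Of 30 other settings listed at the outset 29 were run, and the search for CCAAT in promoters was not run. A further 7, leaving out *ATP2*, were chosen after seeing the data. A median was taken as unchanged within the 95% binomial interval of the median over the genes, which covers the spread between genes only, and a count within 1.5 times. By these limits 24 of the 29 values and 6 of the 7 were unchanged. Some of the 24 were fixed in advance, since each listed gene of the set has a single unshared peak per list. Taking the peak with the highest pileup, or leaving out shared peaks, had no way to alter the set. The median difference (-18 bp), edge shifts (-22 and -2 bp) and counts (9 wider, 26 narrower) therefore show no stability there. Only the like genes were open to change, with median remainders of -9.5 and -9 bp in that order.

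The median remainder after subtracting like genes was -17.5 bp for genes of like length alone and -18 bp for like pileup alone, in place of -9.5 bp. It was -10 bp with 3 by 3 groups, -8 bp with the 50 nearest genes and -7 bp without the lowest 20% of peaks by pileup. With a limit of 200 bp 1 gene was wider and 0 were narrower, with 50 bp 4 were narrower, and without *ATP2* 1 gene was wider by more than 100 bp. Without *ATP2* the median difference was -18.5 bp.

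No paired analysis was possible because the H3K4me3 ChIP was done once per genotype. Breadth depends on depth, on the calling threshold and on the scaling of total signal, which cannot be told apart from genotype here. Most differences at these genes are well below the length of the sonicated fragments.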

Other observations

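The direction of the neighbouring genes, taken from the RefSeq gene order, was compared with the edge shifts. Of the 35 oxidative phosphorylation genes 12 have a divergent upstream neighbour, so that a promoter region lies between 2 genes transcribed apart, and 23 have an upstream neighbour on the same strand. The median upstream shift was -22.5 bp in the first group and -15 bp in the second, beside -14 and -13 bp for other genes. Downstream, the median shift was 2 bp at 18 genes with a convergent neighbour and -4 bp at 17 with a neighbour on the same strand, beside 30 bp in both groups of other genes.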
